A study of Homo sapiens with 20 samples.

Results

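RD is an established human rhabdomyosarcoma cell line of the embryonal type, which lacks the PAX fusion gene of other rhabdomyosarcomas and keeps features of immature skeletal muscle. The comparison asked which mRNAs differed when RD tumors grew from cells with TLE3 knocked out. It set 4 libraries of TLE3 knockout tumors (replicates 1 to 4) against 5 libraries of tumors from cells with a non-targeting control (replicates 1 to 5), which is 9 of the 20 libraries of the series. Knockout replicate 5 was left out as a shallow library, whose lowest value above 0 was 5 normalized counts, against 1 in each of the 9, and which had 32105 genes above 0. The other libraries of the series come from SJRH30, a second rhabdomyosarcoma line treated in the same way, and were used only to test whether the response differed between the lines.

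All tumors of both groups grew in NOD/SCID mice, a strain that lacks functional T and B cells but has macrophages. They were taken when the control tumors had reached their size limit and were frozen, and poly(A) RNA was sequenced. The labels name no guide, clone, pool of cells, cage or batch, and do not say that each tumor came from its own mouse, so every p-value measures the spread between these libraries. RNA was extracted with 1 of 2 kits and the labels do not say which tumor had which, so kit and group cannot be told apart.

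TLE3 codes for a corepressor of the Groucho family. These proteins do not bind DNA themselves. They are recruited by factors such as TCF/LEF in Wnt signalling and HES proteins in Notch signalling, where they keep target genes off, and TLE proteins have also been tied to the restraint of muscle differentiation. Immediate early genes, the largest group among the results, are switched on within minutes of growth factor, stress or wounding signals without new protein synthesis, and most code for transcription factors or for proteins that shut the response down again.

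The 9 libraries held 26.1 M to 33.3 M normalized counts and 39833 to 42412 genes above 0. Mitochondrial transcripts made up 6.38% ± 1.39 (SD, n = 5) of the controls and 5.36% ± 2.48 (n = 4) of the knockouts (exact permutation test, 2-sided, p = 0.460, where the smallest possible p is 0.0159). Muscle lineage markers were present in every library, with MYOD1 between 1363 and 3649, MYOG between 2716 and 11241 and the desmin gene DES between 4643 and 11317 normalized counts, while MYF5 was near 0 (0 to 13). Control 1, control 4 and knockout 2 stood apart through mature muscle genes. Their summed counts over the sarcomere and muscle differentiation list were 817551, 409310 and 616619, against 37624 to 137065 in the other 6 libraries. Control 1 also held 26325 summed counts of keratinocyte genes, against 1004 to 2260 elsewhere. Knockout 5, which is outside the comparison, had 32.4% mitochondrial counts.

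The transcript of the targeted gene was detected in every library. TLE3 (chromosome 15, 70047790 to 70098176, GRCh38) had 1345, 1810, 2622, 1270 and 1809 normalized counts in controls 1 to 5 and 1465, 1357, 1032 and 1547 in the libraries labelled knockout 1 to 4. The groups overlapped, and the log2 fold change of -0.36 ± 0.23 (standard error) did not pass (limma adjusted p = 0.634). A count over the whole gene cannot show a frameshift or the absence of a protein, so it does not check the label.

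Of 36557 genes tested, 102 fell (0.279%) and 33 rose (0.0903%), 0.369% in all, at a limma adjusted p below 0.05. Larger changes were mostly falls, with 38 genes below a log2 fold change of -2 and 6 genes above 2, while the median over all genes tested was 0.03. At an unadjusted p below 0.05 there were 1975 genes lower (5.4%) and 1799 higher (4.92%). Protein-coding genes made up 76 of the falls and 16 of the rises. The 2 groups did not overlap for any of the 135 genes called, but the choice by adjusted p favours such genes, so this is no added support. Over all genes tested the groups did not overlap for 3.94% (2.04% lower and 1.9% higher). The authors' deposited table gave an adjusted p below 0.05 for 224 genes, and 113 of them were among the 135, which is 83.7% of the genes called here and 50.4% of the authors' genes. The count rested on single libraries. Leaving out 1 library gave 37 genes (without control 2), 43 (control 5), 57 (control 4), 93 (control 1) and 234 (control 3), and 43, 79, 46 and 41 without knockouts 1 to 4, and 29 of the 135 genes were called in all 9 of these fits. Without the 3 libraries rich in muscle genes GCG and CXCL3 were not tested, the other 133 of the 135 kept their direction and 24 were still called, out of 20 genes lower (0.0591% of those tested) and 5 higher (0.0148%). That fit held only controls 2, 3 and 5 and knockouts 1, 3 and 4. With fewer libraries, a call lost in it does not show that the change was smaller. With the shallow knockout 5 added 51 genes were lower (0.138%) and 11 higher (0.0297%).

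**Figure D1:**
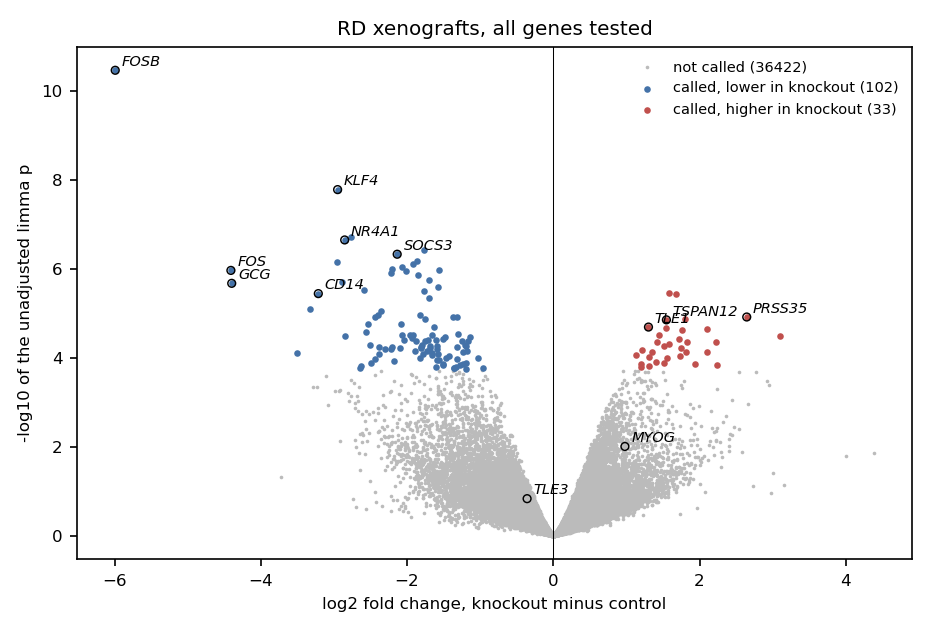
Each point is 1 of the 36557 genes tested, with the log2 fold change (knockout minus control) on the horizontal axis and minus log10 of the unadjusted limma p on the vertical axis. Blue points are the 102 genes called lower and red points the 33 called higher; FOSB lies far from all others at -5.99, and TLE3 and MYOG were not called.

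Genes for the AP-1 transcription factor, which is built from FOS, JUN and ATF family proteins, gave the largest fall. FOSB, a FOS family subunit (chromosome 19, 45467995 to 45475179), had 1234, 2776, 3793, 3001 and 1953 normalized counts in the controls against 34, 25, 43 and 48 in the knockouts. Every control was above 1000 and every knockout below 50, and the group means stood 68.0-fold apart. The log2 fold change was -5.99 ± 0.31 (limma adjusted p = 1.26e-06), and without the 3 muscle-rich libraries it was -6.02 (adjusted p = 0.000188).

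FOS, the founding member of that family (chromosome 14, 75278774 to 75282230), had 12045, 2988, 5632, 2967 and 1160 normalized counts in the controls against 162, 314, 187 and 95 in the knockouts. Control 1 held the highest FOS value but the lowest FOSB value of the controls, so the spread of the pair within the control group did not run in parallel. FOS fell by 4.41 ± 0.53 on the log2 scale (limma adjusted p = 0.00293).

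The other AP-1 genes that fell, named after their values were seen, changed by less. JUN, the usual dimer partner of FOS, lay between 2472 and 3310 normalized counts in the controls and between 659 and 1268 in the knockouts (log2 -1.70 ± 0.21, limma adjusted p = 0.0039). JUNB, a JUN family subunit, lay at 4091 to 6273 and at 1038 to 2164 (-1.76 ± 0.23, adjusted p = 0.0052), and the stress-induced subunit gene ATF3 at 991 to 1725 and 239 to 421 (-1.86 ± 0.23, adjusted p = 0.0032). The remaining FOS and JUN family members did not pass, with log2 fold changes of -0.65 for FOSL1 (adjusted p = 0.581), -0.09 for FOSL2 (0.909) and -0.52 for JUND (0.508). FOSB, FOS, JUN, JUNB and ATF3 passed in all 9 fits that left out 1 library. JUN (log2 -1.60, limma adjusted p = 0.0797), JUNB (-1.57, 0.0745) and ATF3 (-1.76, 0.0684) did not pass without the 3 muscle-rich libraries.

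Zinc finger and nuclear receptor genes of the same response fell with them. KLF4, a zinc finger factor of growth arrest and cell identity, had 1278, 1495, 963, 1370 and 898 normalized counts in the controls against 192, 106, 204 and 127 in the knockouts. The lowest control was still far above the highest knockout, and the log2 fold change was -2.95 ± 0.25 (limma adjusted p = 0.000303).

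NR4A1, an orphan nuclear receptor gene, had 1691, 1138, 1120, 1494 and 646 normalized counts against 185, 237, 135 and 109, again with no overlap (log2 -2.85 ± 0.30, limma adjusted p = 0.00205). Its relative NR4A3 went from 261 ± 117 to 49.0 ± 18.3 (SD, n = 5 and 4; -2.35 ± 0.34, adjusted p = 0.0115), and the zinc finger gene KLF2 from 611 to 1110 in the controls to 132 to 250 in the knockouts (-2.06 ± 0.25, adjusted p = 0.0029). EGR2 fell from 668 ± 250 to 186.5 ± 29.2 (-1.75 ± 0.29, adjusted p = 0.0236) but passed in 3 of the 9 fits that left out 1 library. Without the 3 muscle-rich libraries NR4A3 (adjusted p = 0.0921) and EGR2 (0.225) did not pass. NR4A3, KLF2 and EGR2 were named after their values were seen.

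EGR1, the best-known gene of the EGR family, had 9485, 7116, 9194, 3680 and 2695 normalized counts in the controls against 2317, 1522, 2251 and 2177 in the knockouts. Every control was higher than every knockout, but controls 4 and 5 lay close to the knockouts and the difference did not pass (log2 -1.49 ± 0.35, limma adjusted p = 0.108). Of the 25 listed immediate early factors tested, 10 fell, 0 rose and 15 did not pass, where 0.279% of all genes tested fell. The list's median log2 fold change was -1.24 against 0.03 for all genes tested. A value below 0 was found for 23 of the 25, against 47.5% of all genes tested, and the exceptions were IER3 (0.57, adjusted p = 0.484) and IER5 (0.06). Summed over the list, the controls held 49184 to 67082 normalized counts and the knockouts 21281 to 35689. Without the 3 muscle-rich libraries the median was again -1.24, with 5 genes called lower. This list and the others below were chosen with earlier results of these data known. Their shares of called genes are therefore no independent support.

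**Figure D2:**
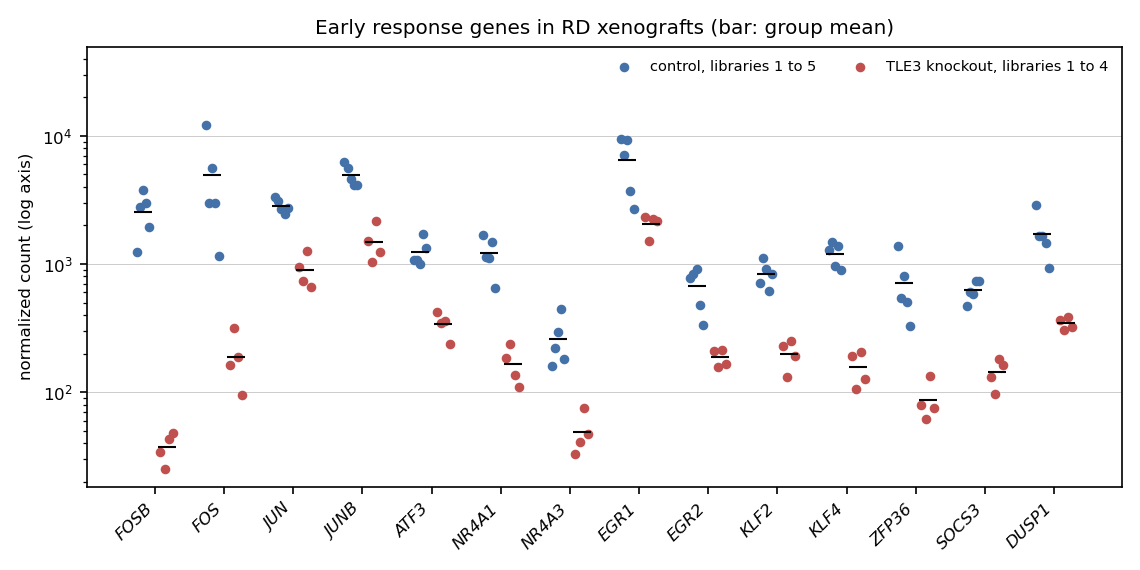
Normalized counts on a log axis for 14 early response genes, with 1 point per library (blue, controls 1 to 5; red, knockouts 1 to 4) and a bar at the group mean. In all 14 genes the knockout points lie below the control points, with the widest gap for FOSB (1234 to 3793 against 25 to 48) and the narrowest for EGR1.

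Proteins that end the early response were measured too. ZFP36, which codes for an RNA-binding protein that speeds the decay of AU-rich mRNAs, had 1378, 542, 802, 506 and 329 normalized counts in the controls against 80, 62, 133 and 75 in the knockouts (log2 -2.90 ± 0.37, limma adjusted p = 0.00407). SOCS3, an inhibitor of cytokine receptor signalling, had 466, 603, 580, 735 and 738 against 132, 97, 182 and 162 (-2.13 ± 0.24, adjusted p = 0.00286). Neither gene's groups overlapped, and both passed in all 9 fits that left out 1 library, but ZFP36 did not pass without the 3 muscle-rich libraries (adjusted p = 0.0745). PPP1R15A, a phosphatase subunit that reverses the translation block of the stress response, fell by 1.71 ± 0.29 (adjusted p = 0.0236), passing in 3 of the 9 fits. Of 20 genes on this list 3 fell, 0 rose and 17 did not pass (median -0.64), where 0.279% of all genes tested fell.

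The MAP kinase feedback genes did not follow as a group. DUSP1, a phosphatase that switches off stress-activated MAP kinases, had 2899, 1640, 1644, 1459 and 934 normalized counts against 364, 307, 384 and 325 and fell by 2.22 ± 0.27 on the log2 scale (limma adjusted p = 0.00295). The other 13 genes of the list did not pass. DUSP6, the phosphatase of ERK and a usual readout of ERK activity, had 10899 ± 1944 (SD, n = 5) in the controls and 14758 ± 5240 (n = 4) in the knockouts (0.38 ± 0.26, adjusted p = 0.649), and SPRY4 differed by 0.06 ± 0.23 (adjusted p = 0.951). The list's median was -0.16.

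The sequences upstream of 5 early genes that fell are shown, 4 as examples with a motif and ZFP36 as an example without one. They are the 250 bases before the annotated start in RefSeq (GRCh38.p14), with capitals marking the cAMP response element half-site TGACG on either strand, the full element TGACGTCA, and the CArG box bound by serum response factor. FOSB lies at chr19:45467746-45467995, FOS at chr14:75278578-75278827 and ZFP36 at chr19:39406597-39406846, all on the plus strand. DUSP1 lies at chr5:172771196-172771445 and the third window of EGR2 at chr10:62816367-62816616, both on the minus strand.
FOSB: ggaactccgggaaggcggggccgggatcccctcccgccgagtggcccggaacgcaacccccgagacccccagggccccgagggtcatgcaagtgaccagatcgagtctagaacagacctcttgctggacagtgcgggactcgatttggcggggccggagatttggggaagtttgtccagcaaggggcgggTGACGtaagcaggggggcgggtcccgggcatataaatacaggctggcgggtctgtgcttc
FOS: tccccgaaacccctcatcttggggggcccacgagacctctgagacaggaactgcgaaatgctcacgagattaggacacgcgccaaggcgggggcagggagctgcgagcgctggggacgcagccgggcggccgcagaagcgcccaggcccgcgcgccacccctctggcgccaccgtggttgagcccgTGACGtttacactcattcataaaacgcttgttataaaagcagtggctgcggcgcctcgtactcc
DUSP1: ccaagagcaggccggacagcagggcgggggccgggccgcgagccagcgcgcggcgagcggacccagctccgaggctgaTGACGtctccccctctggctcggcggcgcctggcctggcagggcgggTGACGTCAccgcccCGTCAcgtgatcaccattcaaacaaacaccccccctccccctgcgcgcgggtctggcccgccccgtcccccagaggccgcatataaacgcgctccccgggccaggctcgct
EGR2: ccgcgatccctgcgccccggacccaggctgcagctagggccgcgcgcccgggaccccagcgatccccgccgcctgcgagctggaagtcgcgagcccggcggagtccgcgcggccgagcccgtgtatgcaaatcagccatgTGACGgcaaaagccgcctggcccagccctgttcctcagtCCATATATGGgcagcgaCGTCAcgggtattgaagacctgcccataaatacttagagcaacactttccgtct
ZFP36: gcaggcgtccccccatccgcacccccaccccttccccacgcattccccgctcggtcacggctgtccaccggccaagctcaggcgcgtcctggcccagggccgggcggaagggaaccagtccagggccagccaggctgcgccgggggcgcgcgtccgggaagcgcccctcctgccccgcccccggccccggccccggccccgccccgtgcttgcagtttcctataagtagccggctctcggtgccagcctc
FOSB and FOS each show 1 half-site near the start, DUSP1 a full element with further half-sites, and EGR2 a CArG box between 2 half-sites. The motifs searched were in neither of the other 250-base stretches of EGR2, nor in those of ZFP36, ATF3 and NR4A1. Over windows of 300 bases around the start (250 before and 50 after), a half-site on either strand was found in 14 of the 19 immediate early genes that had a window (73.7%), in 7 of the 10 that fell (70.0%), in 36.1% of 14135 protein-coding genes tested and in 28.4% of all 27305 genes with a window. Among the 54 protein-coding genes with a window that fell the share was 40.7%. The half-site lies inside the full element, which was found in 0 of the 10 immediate early genes that fell and in 2.25% of all genes with a window. The CArG box was found in 3 of the 19 immediate early genes, in 1 of the 10 that fell and in 1.60% of all genes with a window. For the AP-1 site TGANTCA these were 1 of the 19, 0 of the 10 and 9.37%. These are matches of letters, not sites shown to be bound.

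Inflammatory genes formed the second group of falls. IL1B, the gene of the cytokine interleukin 1 beta, had 130, 74, 110, 134 and 57 normalized counts in the controls against 17, 16, 15 and 13 in the knockouts. The knockouts were nearly identical to each other and all below the lowest control (log2 -2.58 ± 0.34, limma adjusted p = 0.00524, called in all 9 fits that left out 1 library). The T cell chemokine gene CCL5 had 105, 114, 156, 169 and 127 against 37, 42, 42 and 33 (-1.76 ± 0.27, adjusted p = 0.0136).

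The platelet factor 4 chemokine genes PF4 and PF4V1 are close copies and may share reads. PF4V1 had 135, 259, 51, 139 and 172 normalized counts against 33, 15, 22 and 9 (log2 -2.84 ± 0.47, limma adjusted p = 0.0227), and PF4 had 59, 102, 18, 72 and 71 against 10, 6, 15 and 5 (-2.63 ± 0.51, adjusted p = 0.0447). Control 3 was the lowest control for both and lay close to the highest knockout. CXCL3, a neutrophil chemokine gene, was low throughout, with 16, 6, 21, 25 and 10 against 0, 0, 0 and 2, and its log2 fold change of -3.51 ± 0.63 (adjusted p = 0.0293) depends on the 1 added to each value. Of 25 listed cytokine and chemokine genes tested 5 fell, 0 rose and 20 did not pass, with a median of -1.31, where 0.279% of all genes tested fell. Among those that did not pass was the interferon-induced chemokine gene CXCL10 (19, 25, 12, 111 and 38 against 7, 1, 4 and 4, adjusted p = 0.0954). Without the 3 muscle-rich libraries none of the list was called (median -1.11).

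Markers of macrophages were lower in part. CD14, a monocyte receptor for bacterial lipopolysaccharide, had 184, 234, 103, 329 and 263 normalized counts in the controls against 34, 10, 38 and 16 in the knockouts (log2 -3.21 ± 0.43, limma adjusted p = 0.0054, called in all 9 fits that left out 1 library). C1QB, a chain of complement C1q, had 891, 2361, 1166, 2086 and 2286 against 515, 397, 597 and 275 (-1.93 ± 0.32, adjusted p = 0.0236). In both genes controls 1 and 3 were the lowest controls and the groups did not overlap. C1QA (-1.35 ± 0.26, adjusted p = 0.0465) and the adaptor gene TYROBP (-1.65 ± 0.30, adjusted p = 0.0313) fell as well, and these and C1QB passed in 2 or 3 of the 9 fits.

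Other markers of the same cells did not pass. CSF1R, the receptor that macrophages need to survive, had 2394, 1733, 1502, 2967 and 1934 normalized counts in the controls against 2384, 1593, 2147 and 1305 in the knockouts (log2 -0.18 ± 0.24, limma adjusted p = 0.838), and the groups overlapped over most of their range. The integrin gene ITGAM lay at 68 to 103 and 59 to 124 (-0.12, adjusted p = 0.911) and the pan-leukocyte gene PTPRC at 116 to 239 and 99 to 132 (-0.62, adjusted p = 0.418). Of 22 macrophage genes tested 4 fell, 0 rose and 18 did not pass, where 0.279% of all genes tested fell. The median was -1.05, and 21 lay below 0, as did 47.5% of all genes tested. The summed list was 9525, 14050, 7466, 16352 and 16377 in the controls against 7223, 5020, 7337 and 4664 in the knockouts, so control 3 was nearly level with knockouts 1 and 3. Fewer cells of a type and less RNA per cell cannot be told apart in bulk tumors. The submitters' processing notes name a human build only and the labels mention no removal of mouse reads, so counts of such genes may come from human cells or mouse host cells, and their origin was not tested. Without the 3 muscle-rich libraries the median was -0.99 and none of the list was called.

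**Figure D3:**
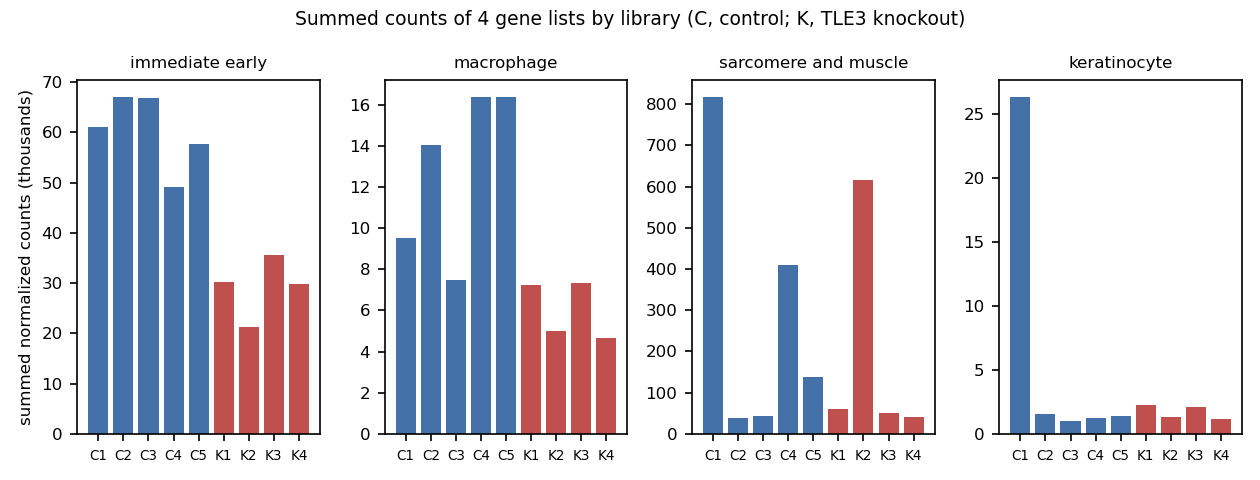
Summed normalized counts (axis in units of 1000) of 4 gene lists in each library (C1 to C5, controls, blue; K1 to K4, TLE3 knockouts, red). Immediate early sums separate the groups (49184 or more against 35689 or less), macrophage sums nearly meet at control 3 and knockouts 1 and 3, sarcomere sums are high in C1, C4 and K2, and the keratinocyte sum is high in C1.

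Lists for other host or stromal cells gave no called gene. Outside the lists the T cell receptor constant gene TRBC1, named after its values were seen, was called lower. It had 92 to 199 normalized counts in the controls against 8 to 41 in the knockouts (log2 -2.38 ± 0.43, limma adjusted p = 0.0307). TRBC1 passed in 1 of the 9 leave-one-out fits and not without the 3 muscle-rich libraries (adjusted p = 0.265). Medians were -0.17 for 15 endothelial genes, -0.11 for 16 fibroblast and pericyte genes, -0.13 for 12 lymphocyte genes, -0.03 for 7 neutrophil genes, -0.21 for 14 neural and Schwann genes, -1.09 for 9 erythroid genes and -0.94 for 12 keratinocyte genes. The erythroid sum spanned 5614 to 27913 in the controls and 941 to 14784 in the knockouts, so those groups overlapped. Their part in the falls described here was not tested.

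Complement, protease and immune receptor genes outside the lists, named after their values were seen, were among the other falls. The complement genes C4A and C4B, near-identical copies that share reads, had 898 to 2583 normalized counts in the controls and 197 to 585 in the knockouts for C4A, and 886 to 2471 and 194 to 567 for C4B (log2 -2.22 ± 0.39 and -2.20 ± 0.38, limma adjusted p = 0.0267 and 0.0263). CFB, a protease of the alternative complement pathway (-2.18 ± 0.41, adjusted p = 0.0379), its regulator gene CFP (-2.04 ± 0.34, 0.0236), the microglial and macrophage receptor gene TREM2 (-1.61 ± 0.31, 0.0459) and the toll-like receptor gene TLR2 (-1.78 ± 0.32, 0.0302) fell too. So did the matrix metalloproteinase gene MMP3 (-2.44 ± 0.45, adjusted p = 0.0344). These passed in 2 to 4 of the 9 leave-one-out fits, and none passed without the 3 muscle-rich libraries.

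Calls among interferon and antigen presentation genes were IRF7 and OAS1. IRF7, the regulator that amplifies interferon production, had 779, 996, 1344, 1218 and 1424 normalized counts in the controls against 328, 483, 294 and 313 in the knockouts, with no overlap (log2 -1.69 ± 0.23, limma adjusted p = 0.0064), and it passed in all 9 fits and without the 3 muscle-rich libraries (adjusted p = 0.0279). OAS1, an enzyme that senses viral RNA, fell by 1.61 ± 0.27 (adjusted p = 0.0236). Other standard interferon targets did not pass, such as ISG15 (-0.45 ± 0.20, adjusted p = 0.465) and IRF1 (-0.28 ± 0.21, 0.684). Of 36 interferon-stimulated genes 2 fell, 0 rose and 34 did not pass, with a median of -0.52, where 0.279% of all genes tested fell. At an unadjusted p below 0.05, 14 of the 36 were lower, against 5.4% of all genes tested. Without the 3 muscle-rich libraries OAS1 did not pass (adjusted p = 0.113).

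No gene of the 15 listed for MHC class I antigen presentation was called, although 14 lay below 0 (median -0.60), as did 47.5% of all genes tested. HLA-C, a class I heavy chain gene, had 698, 1186, 129, 1416 and 1593 normalized counts in the controls against 294, 151, 500 and 46 in the knockouts (log2 -2.06 ± 0.73, limma adjusted p = 0.33). Control 3 lay below 3 of the 4 knockouts. HLA genes resemble each other and may share reads.

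Of 9 genes for metallothioneins, small proteins that bind zinc and copper, 3 fell and 6 did not pass, where 0.279% of all genes tested fell. MT1A had 135, 87, 104, 146 and 93 normalized counts in the controls against 23, 29, 24 and 9 in the knockouts (log2 -2.44 ± 0.36, limma adjusted p = 0.013, called in all 9 fits that left out 1 library). MT2A had 482, 612, 511, 609 and 633 against 245, 316, 228 and 223 (-1.17 ± 0.20, adjusted p = 0.0236), and MT1M fell by 1.69 ± 0.29 (adjusted p = 0.0262). All 9 genes of the list lay below 0 (median -1.17), as did 47.5% of all genes tested. The summed counts were 1854 to 2497 in the controls and 997 to 1204 in the knockouts. The genes are clustered copies on chromosome 16 that may share reads. None was called without the 3 muscle-rich libraries, where the median was -1.33.

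The C/EBP factors and some secreted signals fell as well. CEBPD, a C/EBP factor of acute phase and fat cell programs, had 1646, 1341, 1235, 959 and 1344 normalized counts in the controls against 481, 304, 343 and 261 in the knockouts (log2 -1.92 ± 0.23, limma adjusted p = 0.00293). Every control was close to 1000 or above and every knockout below 500, and the gene passed in all 9 fits that left out 1 library. Its relative CEBPB fell by 1.33 ± 0.26 (adjusted p = 0.0458) but passed in none of the 9 fits. The fat cell regulator PPARG did not pass (0.10 ± 0.21, adjusted p = 0.909), nor did the remaining genes of the 16 adipocyte and adipogenic genes tested.

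CCN1, a matricellular protein gene and YAP target, had 2995, 3052, 2261, 2505 and 2080 normalized counts against 1130, 755, 910 and 693 (log2 -1.57 ± 0.20, limma adjusted p = 0.00476; 0.0977 without the 3 muscle-rich libraries). Of the TGF-beta, BMP and YAP list 22 genes did not pass, among them the YAP target CCN2 (-0.59 ± 0.33, adjusted p = 0.578), and the list's median was -0.09.

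Some falls belonged to none of these groups. GCG, the proglucagon gene, went from 60, 113, 54, 42 and 84 normalized counts to 0, 6, 4 and 2 (log2 -4.40 ± 0.56, limma adjusted p = 0.00407), a low gene with no overlap that passed in all 9 fits. PI16, a peptidase inhibitor gene, had 182, 626, 135, 530 and 674 against 80, 52, 88 and 40 (-2.49 ± 0.47, adjusted p = 0.0404) and passed in 2 of them. FBXL7, a ubiquitin ligase subunit gene, and SLC35F3, a carrier protein gene, were chosen after their values were seen. FBXL7 lay at 2015 to 3365 in the controls and 654 to 833 in the knockouts (-1.77 ± 0.19, adjusted p = 0.0027), and SLC35F3 at 840 to 1056 and 266 to 366 (-1.56 ± 0.19, adjusted p = 0.0029).

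Overlapping genes limit some of these values, since nothing states that the kit marked strand. Of the 135 genes called, 38 share exon bases with another tested gene in GENCODE 29 and 10 with another called gene. ERCC1, a DNA repair gene, was called lower (log2 -1.31), and its annotated span (chromosome 19, 45407333 to 45478828, minus strand) contains all of FOSB on the opposite strand. ERCC1 had 2440, 4598, 6271, 4189 and 3815 normalized counts in the controls against 1580, 1456, 1632 and 1922 in the knockouts. ERCC1 less FOSB in the same library was 1711 ± 537 (SD, n = 5) in the controls and 1610 ± 188 (n = 4) in the knockouts. The pair shares gene span but no exon bases in GENCODE 29, where ERCC1 shares 1593 exon bases with CD3EAP (log2 0.12). Whether FOSB reads entered the ERCC1 count was not tested on reads. The antisense transcript RP11-779O18.3, whose span contains DUSP1, had 2925, 1684, 1690, 1491 and 984 against 374, 317, 396 and 351, within 50 counts of DUSP1 in each library, and the pair again shares span but no exon bases. It is thus uncertain as a result of its own, as are ERCC1, NR4A1AS (which overlaps NR4A1) and the RDM1P5 pseudogene (which overlaps PLXDC1). The complement gene CFB shares 2249 exon bases on the same strand with the called gene XXbac-BPG116M5.17 (log2 -2.09). Reads of those 2 genes may therefore be shared.

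Rises were fewer, and 3 of the 16 protein-coding genes that rose belonged to a list. PRSS35, a serine protease-like gene, had 29, 24, 34, 48 and 33 normalized counts in the controls against 478, 106, 234 and 164 in the knockouts. The knockouts spread widely, but the lowest was above the highest control (log2 2.65 ± 0.40, limma adjusted p = 0.013, called in 8 of the 9 fits that left out 1 library). TSPAN12, a tetraspanin of the Norrin and Frizzled-4 receptor complex that feeds into beta-catenin signalling, had 618, 771, 853, 558 and 704 against 2830, 1314, 1917 and 2365 (1.55 ± 0.23, adjusted p = 0.0139, 7 of the 9 fits). Both were also called without the 3 muscle-rich libraries (adjusted p = 0.0483 and 0.0432).

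NTN4, a netrin of basement membranes, had 311, 260, 295, 226 and 243 normalized counts against 718, 436, 711 and 652 (log2 1.22 ± 0.22, limma adjusted p = 0.0276). It was the 1 called gene of 37 listed matrix and basement membrane genes, whose median was 0.17. Some matrix genes were higher without passing, such as the basement membrane collagen gene COL15A1 (1301, 2046, 1673, 2192 and 2756 against 6569, 3120, 4147 and 4991, adjusted p = 0.0659) and the proteoglycan gene AGRN (692 to 1248 against 1561 to 2294, adjusted p = 0.114). In both of these the groups did not overlap. Over the list 5 genes were higher without overlap and 1 was lower, against 1.9% and 2.04% of all genes tested.

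The other named rises were between 1.30 and 1.82 on the log2 scale. S100A2, a calcium-binding protein gene, had 101, 143, 199, 111 and 88 normalized counts against 336, 317, 404 and 839 (limma adjusted p = 0.0289), with knockout 4 well above the rest. ITGB6, an integrin subunit that activates TGF-beta, had 279, 233, 218, 295 and 189 against 1004, 535, 572 and 604 (adjusted p = 0.0224), and AQP1, a water channel gene, had 755, 578, 607, 537 and 608 against 2409, 1297, 1856 and 1040 (adjusted p = 0.0289). The forkhead factor gene FOXS1 (54 to 181 against 246 to 380, adjusted p = 0.0328), the protein deiminase gene PADI2 (98 to 224 against 378 to 599, 0.0262), the exocytosis gene OTOF (73 to 125 against 197 to 443, 0.0409), the blue cone opsin gene OPN1SW (349 to 655 against 834 to 1678, 0.0445) and the membrane protein gene PLXDC1 (215 to 471 against 611 to 867, 0.0333) rose likewise. CLEC18C (adjusted p = 0.0201) and CLEC18A (0.0344) are near-identical copies coding for lectins, and reads could be split between them. These 10 genes and NTN4 passed in 1 to 4 of the 9 leave-one-out fits, and none passed without the 3 muscle-rich libraries.

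Among the relatives of TLE3, TLE1 rose. It codes for another full-length Groucho corepressor (chromosome 9, 81583683 to 81689305) and had 896, 958, 1400, 851 and 893 normalized counts in the controls against 2860, 1894, 2554 and 2489 in the knockouts. The lowest knockout was above the highest control, and the log2 fold change was 1.30 ± 0.20 (limma adjusted p = 0.0181). The call was lost without control 2 (adjusted p = 0.0648), control 5 (0.061), knockout 1 (0.0749), knockout 3 (0.062), knockout 4 (0.0623) or the 3 muscle-rich libraries (0.0921), where the log2 values were 1.22 to 1.31. With the shallow knockout 5, which had 1012 counts, it was 1.05 (adjusted p = 0.249). TLE4 had 1094, 1340, 1357, 909 and 1169 against 2009, 1617, 1609 and 2232, without overlap, but did not pass (0.67 ± 0.19, adjusted p = 0.201). TLE2 (0.40 ± 0.19, adjusted p = 0.488), the truncated family member TLE5 (-0.12 ± 0.21, 0.879) and TLE6 (0.25 ± 0.35, 0.843) did not pass either.

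**Figure D4:**
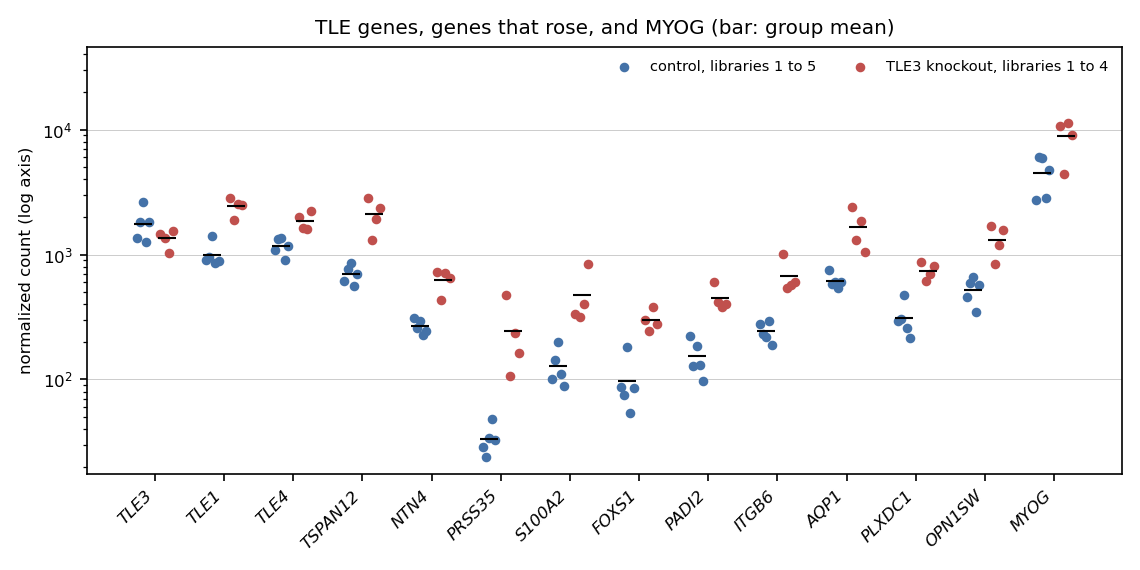
Normalized counts on a log axis for TLE3, TLE1, TLE4, 10 genes that rose and MYOG, with 1 point per library (blue, controls 1 to 5; red, knockouts 1 to 4) and a bar at the group mean. TLE3 overlaps between the groups, TLE1 (851 to 1400 against 1894 to 2860) and the 10 genes that rose do not, and MYOG overlaps at knockout 2.

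Wnt and Notch genes, the pathways in which Groucho proteins are best known, showed 1 call. Of 29 genes on the Wnt and TCF list 1 rose, 0 fell and 28 did not pass, with a median of 0.01. The 1 that rose was TSPAN12, listed as a gene of the receptor complex and not shown to be a TCF target. AXIN2, a direct target of beta-catenin, had 227, 236, 202, 226 and 288 normalized counts against 271, 190, 178 and 102 (log2 -0.42 ± 0.27, limma adjusted p = 0.636), and LEF1, a TCF family factor and target, was at 0.39 ± 0.19 (adjusted p = 0.502). Of 20 Notch pathway genes none was called (median 0.24). NOTCH3 had 2562 to 4807 in the controls and 4940 to 7159 in the knockouts (0.80 ± 0.21, adjusted p = 0.168), while its target genes HES1 (0.19 ± 0.31, 0.872) and HEY1 (0.60 ± 0.25, 0.428) overlapped between the groups.

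No listed regulator or structural gene of muscle differentiation was called. MYOG, the factor that starts terminal differentiation of myoblasts, had 2716, 6088, 5942, 2848 and 4722 normalized counts in the controls against 10645, 4403, 11241 and 9012 in the knockouts. Knockouts 1, 3 and 4 were above every control and knockout 2, one of the muscle-rich libraries, was not (log2 0.98 ± 0.33, limma adjusted p = 0.284). Without the 3 muscle-rich libraries the value was 0.89 (adjusted p = 0.211). MYOD1, the master regulator of the lineage, had 1363, 3039, 2010, 1806 and 3649 against 2401, 1467, 2820 and 1492 (-0.18 ± 0.30, adjusted p = 0.873), and PAX7, the factor of muscle stem cells, was at 0.35 ± 0.23 (adjusted p = 0.632).

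Of 21 myogenic regulators (median 0.27) and 14 myoblast fusion genes (median 0.33) none was called. MYF6, which marks maturing fibres, had 431, 2, 2, 293 and 68 normalized counts against 6, 175, 1 and 0, and followed the split seen in the sarcomere list (log2 -2.43 ± 1.68, limma adjusted p = 0.656). That list of 57 genes also had no call, with a median of -0.68 over all 9 libraries and -0.18 without the 3 muscle-rich ones. The creatine kinase gene CKM shows the width of the split, with 69751, 76, 23, 36032 and 8798 in the controls against 513, 54823, 228 and 173 in the knockouts.

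The listed growth and metabolism genes gave no call in either direction. The proliferation marker gene MKI67 had 1621, 2680, 2191, 3688 and 3470 normalized counts against 3067, 2257, 2321 and 2802 (log2 -0.01 ± 0.25, limma adjusted p = 0.991), and the median of 37 proliferation genes was -0.01. The cell cycle inhibitors CDKN1A (-0.32 ± 0.21, adjusted p = 0.632) and CDKN1C (0.37 ± 0.31, 0.722), MYC (-0.21 ± 0.32, 0.859) and the tyrosine kinase gene FGFR4 (0.44 ± 0.25, 0.572) did not pass. Medians were 0.15 for 13 cell cycle inhibitors, 0.13 for 26 receptor tyrosine kinase and growth factor genes, -0.24 for 36 hypoxia and glycolysis genes, 0.31 for 25 cholesterol and fatty acid synthesis genes and 0.07 for 21 genes of the integrated and unfolded protein stress response. They were -0.16 for 37 nuclear-encoded respiratory chain genes, -0.30 for 15 mitochondrially encoded genes, -0.02 for 41 ribosomal protein genes and -0.32 for 16 heat shock genes.

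**Figure D5:**
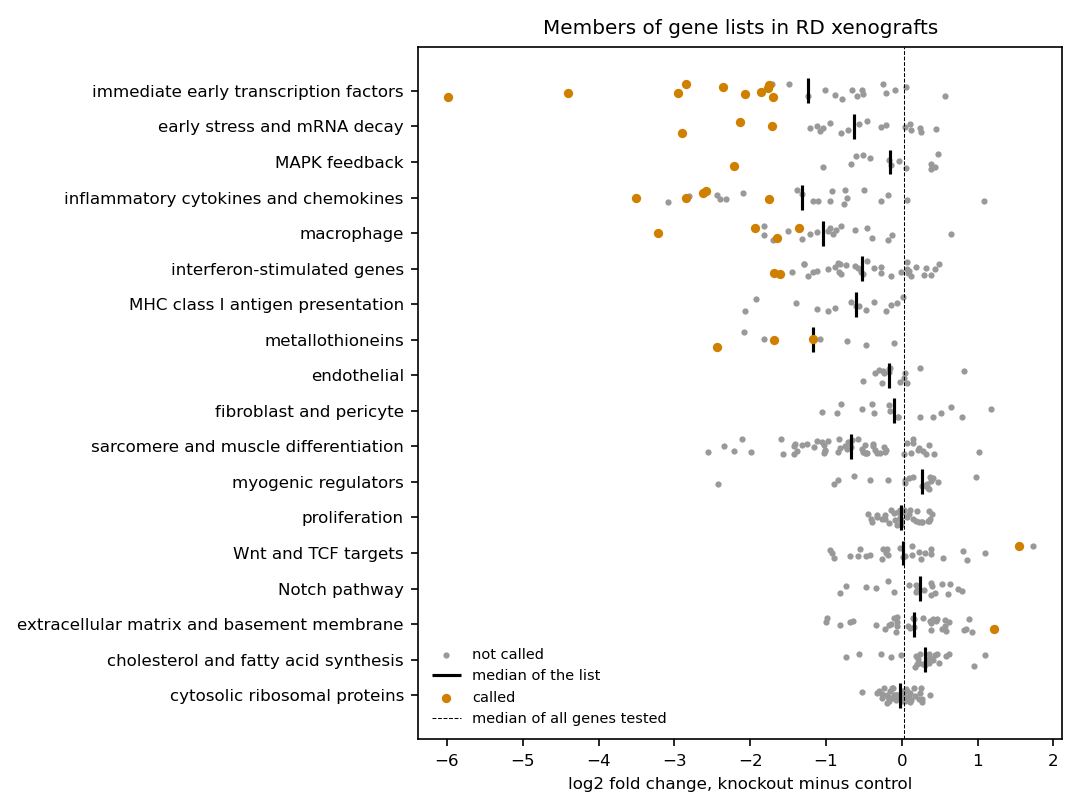
Log2 fold change (knockout minus control) of each tested member of 18 gene lists, with called genes in orange, the list median as a black bar and the median of all genes tested (0.03) as a dashed line. Called genes lie on the left in the immediate early, mRNA decay, feedback, cytokine, macrophage, interferon and metallothionein lists, and on the right for TSPAN12 and NTN4.

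The same knockout in SJRH30 tumors was set beside RD in a fit of 18 libraries without the shallow one of either line, in which 4.02% of 39530 genes were called for the SJRH30 knockout. FOSB had a mean of 308 normalized counts in SJRH30 controls and 37.8 in SJRH30 knockouts (log2 -2.92 ± 0.33, limma adjusted p = 4.27e-05), so the knockout means of both lines were near 38 while the controls differed. The fall in RD was larger by 3.07 ± 0.47 (difference of effects, adjusted p = 0.00484). NR4A1 fell in SJRH30 by 2.47 ± 0.34 and FOS by 2.58 ± 0.53 (adjusted p = 0.000408 and 0.0123), and neither effect differed between the lines by the test (adjusted p = 0.79 and 0.4).

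Of the genes in that fit, 92 (0.233%) had effects that differed between the lines. KLF4 was among them, with a knockout fall larger in RD than in SJRH30 by 2.01 ± 0.40 (adjusted p = 0.0359). So was GCG (-4.67 ± 0.92, 0.0354), which was near 0 in SJRH30 throughout. Among rises the effect in RD exceeded that in SJRH30 for PRSS35 (3.24 ± 0.67, adjusted p = 0.0418), CLEC18C (2.50 ± 0.49, 0.0315), FOXS1 (2.45 ± 0.52, 0.0441) and TSPAN12 (1.72 ± 0.35, 0.0418). PRSS35 was near 0 in SJRH30, with means of 3.5 normalized counts in the controls and 2.2 in the knockouts. Its effect in that line therefore depends on the 1 added to each value. For TLE1, with 8190 and 8471 counts in SJRH30 (log2 0.07), the difference of 1.23 ± 0.32 did not pass (adjusted p = 0.124). The other 34 called genes named here by the rule for named genes, FOS and NR4A1 among them, did not differ between the lines by the test, which does not show that the lines respond alike. Outside that rule FBXL7 differed by -2.96 ± 0.41 (limma adjusted p = 0.0021), with a rise in SJRH30 (log2 1.18 ± 0.29, 0.0286). SLC35F3 (-1.67 ± 0.36, 0.0453) and MMP3 (-2.87 ± 0.56, 0.0323) differed too.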

How the data were processed

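Poly(A) RNA of RD xenograft tumors was sequenced by the submitters. Per the submitters' processing notes the tools were FastQC, fastp 0.20.1, STAR 2.7, featureCounts and edgeR with GRCh38.p7, in no stated order and with no mention of mouse reads. What the authors deposited is a score per gene: their normalized counts, rounded to whole numbers. No count model was therefore run. Per the file headers the authors' deposited comparison table holds a linear ratio (fold change), its log2 value, a p-value and an adjusted p-value, which are printed only where that table is named.

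Of 57992 listed genes 44294 had values. A gene was tested where at least 4 of the 9 libraries had a value of 5 or more. Values were put on the log2(value + 1) scale and fitted with limma 3.58.1 (R 4.3.3, trend option), 2-sided, with Benjamini-Hochberg adjustment over all genes tested and no further scaling, and each adjusted p is from that tool unless the authors' table is named. Fold changes on this scale understate the change of low genes. Coordinates come from GENCODE 29, where 36181 of the tested genes were found by identifier, and exon overlaps from bedtools 2.31.1. Shares of a library were compared by exact permutation with scipy 1.17.1.

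No pair of libraries shared more than 0.322% of its values among genes at 100 or more, and each library's median correlation within its group was 0.927 to 0.949. Read depth in reads is unknown, since only normalized values were used, and knockout 5 is called shallow from its lowest value above 0 (5, against 1). Named genes are the TLE genes, the 12 largest falls and 12 largest rises among called, non-overlapping protein-coding genes with a mean of at least 50, up to 4 called genes per list, and 15 genes of this tumor type. The members of the comparison and the 34 gene lists were chosen with earlier results of these data known. Alternatives were other pseudocounts, filters, scalings and fits, a replicate block and leaving out libraries. Some items are not reported here.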

Additional observations from a re-analysis of the deposited data

Results flagged for a closer look

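Among 196 groups of 4 or 5 libraries looked at, 8 held a library far from the others of its group, where chance alone would give about 1 in 20 groups. TLE1 stood at 1400 normalized counts in control 3, above the other controls, and CXCL3 at 2 in knockout 4, where the other knockouts were at 0. The 7SL RNA share was 6.97% in control 3. Summed lists stood apart for keratinocyte genes in control 1 (26325), sarcomere and muscle differentiation genes in knockout 2 (616619), Notch genes in knockout 2 (33024, the lowest), respiratory chain genes in knockout 4 (80302, the lowest) and ribosomal protein genes in control 1 (1021729, the lowest).

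The knockout effect in RD minus that in SJRH30 was tested as an interaction in limma over 18 libraries. Among the genes named by the rule it passed for FOSB (-3.07), GCG (-4.67), KLF4 (-2.01), PRSS35 (3.24), CLEC18C (2.50), FOXS1 (2.45) and TSPAN12 (1.72) on the log2 scale. GCG and PRSS35 were near 0 in SJRH30.

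RD knockout 5, which is outside the comparison, held 32.4% mitochondrial counts, above the controls.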

How the results depend on the processing

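Of the 42 called genes named, all kept their call with pseudocounts of 0.5 or 5, without a filter, after median-of-ratios or upper-quartile scaling and with robust moderation, and 41 of 41 with a filter at 50. The count of 135 genes (33 higher, 102 lower) became 62 with RD knockout 5 included (11 and 51), 60 in the fit of all 18 deep libraries (18 and 42) and 25 without the 3 muscle-rich libraries (5 and 20), an alternative added after the values were seen. Robust moderation gave 50 higher. Leaving out 1 library gave 37 to 234 genes, 4 to 65 higher and 31 to 169 lower. Effects that differed between the lines numbered 92, 4 with both shallow libraries included, and 21 to 128 leaving out 1 library.

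Replicate numbers did not pair the samples, since deviations of same-numbered control and knockout libraries correlated at -0.29, -0.60, -0.26 and -0.63 and the labels tie no numbers together. The replicate block gave 10 genes (0 higher, 10 lower) and 19 differences between the lines.

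Directions turned among 4 named genes, none of them called, and the cause was not tested. With RD knockout 5 HES1 was at -0.20 and CDKN1C at -0.081 on the log2 scale, and under the replicate block MKI67 was at 0.090. Leaving out 1 library gave -0.18 to 0.11 for MKI67, -0.041 to 0.37 for HES1 and -0.99 to 0.22 for MYF5.

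The number of libraries, 5 and 4, limits which differences can pass, and genes with 5 or more normalized counts in fewer than 4 of the 9 libraries were not tested.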
